A study of Mus musculus with 36 samples.

Results

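Open chromatin of sham-operated mouse hearts was compared between nuclei enriched with an antibody to PCM1 and nuclei sorted by a genetic reporter. Overlapping regions (1 bp or more) of the 9 deposited lists were merged into loci, sham tags were summed per locus and day, and the day 4 library was set against those of days 7 and 14. The members are the 19733 loci listed on all 3 days, the 17832 listed on day 4 only and the 6304 listed on days 7 and 14 only. These are 43869 of the 60847 loci of the series, from 3 sham libraries among its 36 samples. Membership follows from the days that listed a locus, and listing itself depends on a tag minimum given below.

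The study profiled cardiomyocyte nuclei of the left ventricle by ATAC-seq after myocardial infarction or sham surgery. ATAC-seq reads out accessible DNA by where a transposase can insert. Each of days 4, 7 and 14 had 1 library from sham and 1 from the border zone, which is living myocardium next to the infarct. A further 30 RNA samples were not used here. On day 4 the mice were Cdh5-Cre;Sun1-sfGFP on FVB/N, the nuclei came from a PCM1 pulldown, the labels list no tamoxifen, and reads were paired and 76 bp long. In that line Cre is driven by the promoter of an endothelial gene and the tagged nuclear membrane protein marks endothelial nuclei, and the labels also mention a sort for GFP without saying which fraction gave the ATAC libraries. On days 7 and 14 the mice were Myh6-MerCreMer;nTnG, treated with tamoxifen at 20 mg/kg, from 1 week before surgery, and a flow cytometer sorted 50000 nuclei per sample. Their protocol also names Sun1/sfGFP mice. All the groups were FVB/N mice with sham surgery or an infarction. Day after surgery, mouse line, tamoxifen, way of isolation and aligner changed together between day 4 and the later days, so their parts in any difference below cannot be told apart.

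PCM1 is a protein of the material around the centrosome that moves to the nuclear envelope in cardiomyocytes, so an antibody to it pulls down their nuclei without a transgene. In Myh6-MerCreMer;nTnG mice, tamoxifen lets Cre act in cells that use the alpha myosin heavy chain promoter, and recombined nuclei turn from red to green. Either way is meant to yield a population rich in cardiomyocyte nuclei, along with whatever else the antibody or the gate lets through. The labelled cell type was not tested against marker genes, because the regions carry mm9 coordinates without gene names and no mm9 annotation was used here. With 1 sham library per day, comparisons between these libraries describe them and have no test.

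The day 4 lists held 46827 regions with 5907384 sham tags over 59.81 Mb. The day 7 lists held 34952 regions with 3858892 tags over 42.05 Mb, and the day 14 lists 40980 regions with 13936013 tags over 48.94 Mb. Tags outside listed regions are not in these sums, and the depth of a whole library is unknown here. In every listed region the larger of the sham and border zone values reached a minimum of 35 tags for day 4, 50 for day 7 and 150 for day 14. Sham tags lay under that minimum in 18.3%, 21.4% and 21.4% of regions.

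Sham chromatin of the PCM1-enriched library differed more from either reporter-sorted library than these differed from each other. Over the 19733 loci the median ratio of day 4 to day 7 tags was 1.47, and that of day 14 to day 4 tags was 2.42. After centring on these medians, the log2 ratio of day 4 over day 7 had an SD of 0.91 across loci and that of day 4 over day 14 an SD of 0.83. The ratio of day 7 over day 14 had an SD of 0.56. Within 2-fold lay 76.1% of loci for day 4 against day 7, 80.2% for day 4 against day 14 and 91.9% for day 7 against day 14. The median counting error of a locus was 0.20, 0.14 and 0.17 on the log2 scale for these pairs. The order of the SDs was the same per covered kb (0.66, 0.61 and 0.42) and over the 9482 loci with 1 identical interval on every day (0.64, 0.60 and 0.39).

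**Figure D1:**
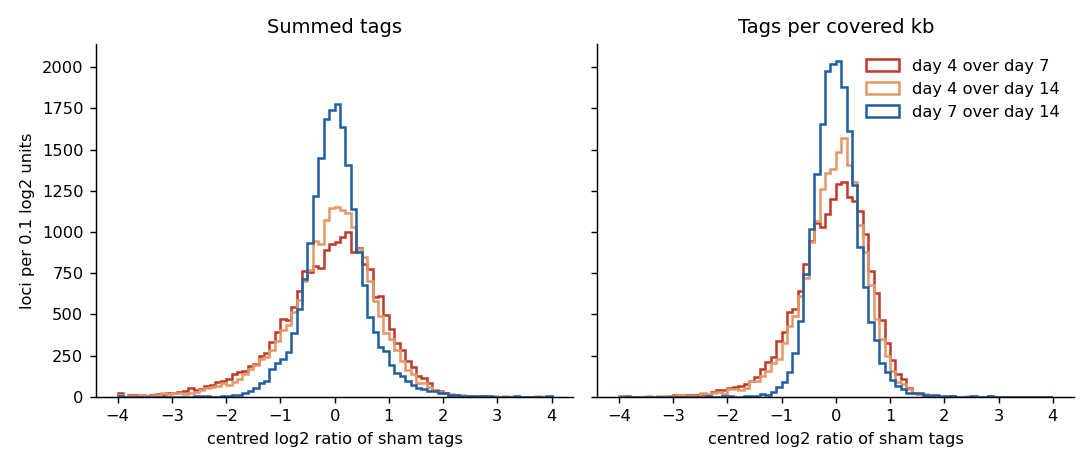
Distributions over 19733 loci of the centred log2 ratio of sham tags for the 3 pairs of days, from summed tags (left) and tags per covered kb (right), with values beyond 4 drawn at 4. The curve of day 7 over day 14, the pair with the same way of isolation, is the narrowest in both panels, and both day 4 curves have a longer tail on the low side.

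The tails were uneven. Day 4 was at least 2-fold above day 7 in 1881 loci and at least 2-fold below it in 2826. Against day 14 the numbers were 1538 and 2364. Day 7 was above day 14 in 894 loci and below it in 708. Loci are called PCM1-higher below where day 4 was at least 2-fold above both later days, and reporter-higher where it was at least 2-fold below both. The first class held 783 loci, which is 3.97% of the 19733, and the other held 1740, which is 8.82%. The listing minimums left unequal room for low values. Over the 19733 loci median sham tags were 159, 97 and 369 on days 4, 7 and 14, beside minimums of 35, 50 and 150. The 5th percentiles were 42, 47 and 152. How far this shortened the PCM1-higher side was not tested. Between the reporter-sorted libraries, 97.4% of PCM1-higher and 95.4% of reporter-higher loci lay within 2-fold. The closest members lay at a smaller ratio of 1.0002 and -1.0002, and the closest loci outside at 0.9994 and -0.9998. Within 0.1 of the thresholds lay 221 loci inside and 261 outside on the PCM1-higher side, and 261 and 335 on the reporter-higher side.

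**Figure D2:**
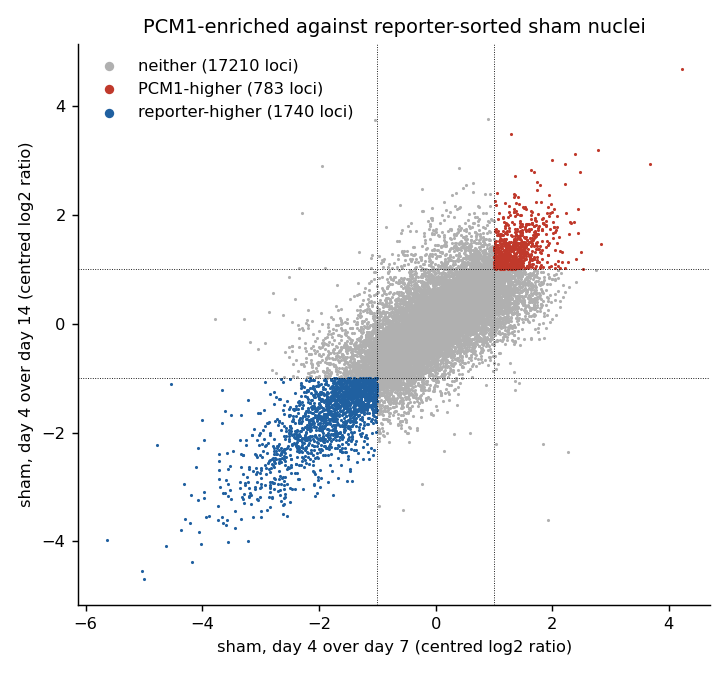
Each point is 1 of 19733 loci, with the centred log2 ratio of sham tags of day 4 over day 7 on the x axis and of day 4 over day 14 on the y axis, and dotted lines at 2-fold. The 783 PCM1-higher loci fill the upper right corner close to the lines, whereas the 1740 reporter-higher loci extend to about 5 log2 units in the lower left. Both axes use the same day 4 library, and a locus not listed on every day is not drawn.

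PCM1-higher loci had median sham tags of 246, 62 and 228 in the libraries of days 4, 7 and 14, beside 159, 97 and 369 over all loci listed on the 3 days. Their day 4 regions were also longer. They covered a mean of 2075 bp on day 4 against 1088 bp on day 7 and 1102 bp on day 14, and 741 of the 783 (94.6%) were covered for longer on day 4 than on the later days, beside 25.4% of all loci. Per covered kb their median ratios shrank from 1.34 to 0.73 against day 7 and from 1.31 to 0.71 against day 14 on the log2 scale. Per kb 716 of them (91.4%) still had positive ratios on both comparisons, and 95 reached 2-fold on both. Over all loci, 154 were PCM1-higher per kb. Only 32 of the 783 had 1 identical interval on all 3 days, which is 0.337% of the 9482 such loci. Higher tags and longer listed regions on day 4 thus went together in this class.

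Reporter-higher loci had median sham tags of 54, 130 and 420.5 in the same order. Their mean covered length was 1217, 1734 and 1714 bp. Of the 1740, 912 (52.4%) were covered for less on day 4 than on both later days, beside 7.69% of all loci. Their median ratios were -1.70 and -1.57, and per covered kb -1.18 and -1.09. Per kb 1701 of them (97.8%) kept both ratios negative and 860 reached 2-fold, with 915 reporter-higher over all loci. The 550 with 1 identical interval made up 5.8% of such loci. Sham tags on day 4 lay under the listing minimum of 35 in 536 of the 1740 (30.8%), where border zone tags had brought the region into the list. No PCM1-higher locus was in that position on day 4, which the choice of a class high on day 4 largely sets. On the later days sham tags lay under the minimum in 46 PCM1-higher loci (5.87%) for day 7 and 43 (5.49%) for day 14. Over all loci these shares were 5.86% and 4.39%, and in reporter-higher loci 9.2% and 6.15%.

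With the interval held identical, the 9482 loci had median ratios of -0.12 and -0.14 before centring on their own medians. Centred on those, an alternative chosen after seeing the data, 68 loci were PCM1-higher and 407 reporter-higher. In this set the reporter-higher side outnumbered the other with either centring.

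The contrast was then read in the border zone libraries, which had no part in the 2-fold rule of the classes. Their tags did help to decide which loci were listed, so they are not fully independent of membership. They came from the same 3 days, ways of isolation and listed intervals, but from infarcted hearts. Border zone tags on day 4 were at least 2-fold above both later days in 607 of the 783 PCM1-higher loci (77.5%), against 9.17% of all loci. They were at least 2-fold below both in 1434 of the 1740 reporter-higher loci (82.4%), against 14.4% of all loci. Border zone ratios were both positive in 765 PCM1-higher loci and both negative in 1725 reporter-higher loci, and no locus of either class reached 2-fold in the opposite direction on both. Their median border zone ratios were 1.67 and 1.49 in the first class and -2.05 and -1.76 in the other. Per covered kb these were 0.98 and 0.86, and -1.44 and -1.18. Among loci with 1 identical interval, 17 of 32 PCM1-higher loci (53.1%, beside 2.6% of all such loci) and 367 of 550 reporter-higher loci (66.7%, beside 12.6%) moved at least 2-fold the same way.

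**Figure D3:**
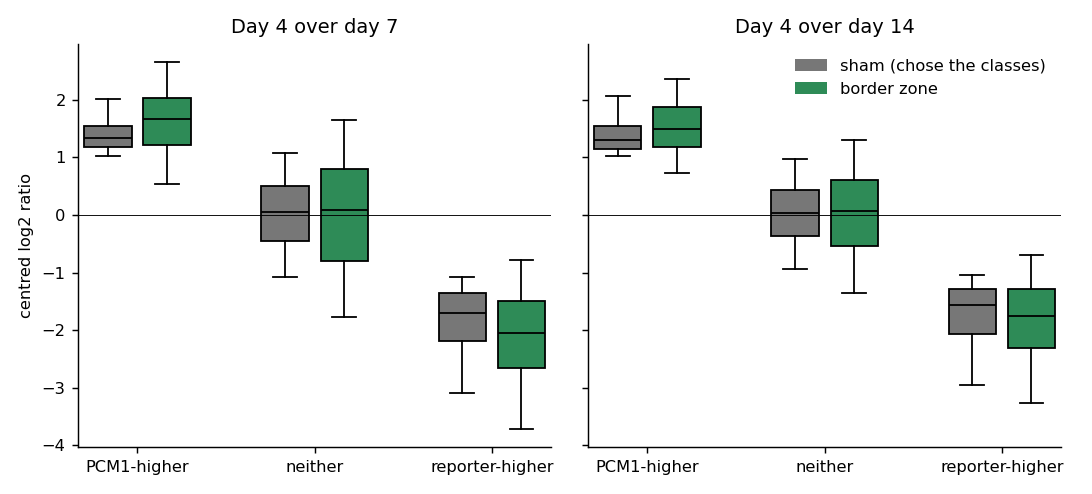
Boxes give the median and quartiles, and whiskers the 5th and 95th percentiles, of the centred log2 ratio across the 783 PCM1-higher, 17210 other and 1740 reporter-higher loci, for day 4 over day 7 (left) and day 4 over day 14 (right). The sham boxes (grey) are fixed by the choice of classes, and the border zone boxes (green) from other libraries lie on the same side of 0.

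Across all 19733 loci, Spearman's correlation between the sham and the border zone ratio was 0.87 for day 4 over day 7, 0.87 for day 4 over day 14 and 0.66 for day 7 over day 14. Sham day 4 over day 7 correlated with border zone day 4 over day 14, a pair with no library in common, at 0.77, and the other crossed pair at 0.69. Over identical intervals these values were 0.78, 0.78, 0.47, 0.75 and 0.63. The points share the listed intervals, and loci are not independent replicates.

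For a test, the sham and border zone libraries were put in 1 model, 2 PCM1-enriched and 4 reporter-sorted ones, with condition as a term. The libraries of a day share its mouse line and isolation, and there is no term for day, so it compares 1 PCM1-enriched day with 2 reporter-sorted days and its p-values can be too small. The quasi-likelihood test of edgeR, adjusted by Benjamini-Hochberg, called 2989 loci (15.1%) higher in PCM1-enriched and 3582 (18.2%) higher in reporter-sorted nuclei at a false discovery rate of 5%. The median log2 fold change was 1.07 (median SE 0.25) among the first and -1.32 (median SE 0.28) among the other. Of the first, 48 differed at least 4-fold, against 639 of the other. The unequal room left by the listing minimums applies here too. The test includes the sham libraries, so its calls in 759 PCM1-higher and 1688 reporter-higher loci are no independent support for the classes. Among loci with 1 identical interval it called 489 and 1672, and when fitted, normalized and adjusted on those loci alone it called 1276 and 1475, a different balance of directions. The calls rested on a pair of day 4 libraries. Without the sham library of day 4 there were 241 and 512, and without the border zone library of day 4 there were 0 and 0, with 3827 loci at an unadjusted p under 0.05. The labels do not say whether each library had its own animals, so p-values reflect only how these libraries vary.

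How the ratio varied with the density of tags depended on the library that ranked the loci. Ranked by border zone tags per kb on day 14, a library that the sham ratios do not use, the median sham ratio of day 4 over day 7 fell from 0.30 in the lowest 10% (median of 99 tags per kb) to -0.50 in the highest (449). That of day 4 over day 14 fell from 0.41 to -0.34. Ranked by border zone tags per kb on day 4, a ranking added after seeing the data, they went the other way, from -0.93 to 0.28 and from -0.80 to 0.26. Reporter-higher loci made up 1.91% of the lowest and 16% of the highest class in the first ranking, and 34.9% and 0.557% in the other. PCM1-higher loci made up 12.4% and 0.0507%, and 0.15% and 3.24%. A ranking by a library of either kind of nuclei sorts loci by the same contrast, so no relation with density itself is read from these values. The ratio of day 7 over day 14 ran from 0.13 to 0.05 and from 0.14 to -0.03.

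**Figure D4:**
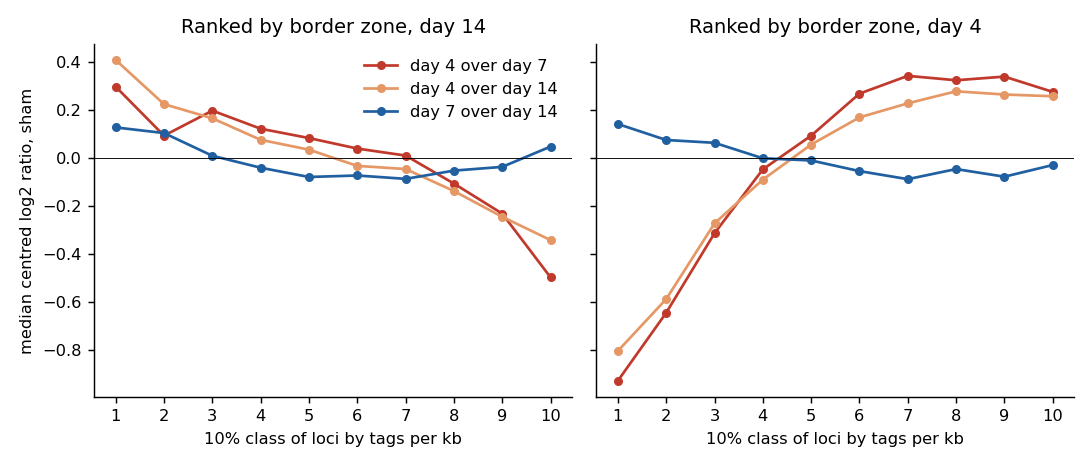
Median centred log2 ratio of sham tags (y axis) in 10% classes of the 19733 loci (x axis, 1 the lowest), ordered by border zone tags per kb on day 14 (left) or on day 4 (right). Both day 4 ratios fall from left to right in the first panel, to -0.50 and -0.34, and end above 0 in the other, at 0.28 and 0.26.

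The classes also differed in how the loci stood between border zone and sham in libraries that the ratio does not use. Where sham day 4 was at least 2-fold below sham day 7, 22.4% of 2826 loci held a region listed as border zone-higher on day 14, beside 7.2% of all loci. A sham-higher region was held by 1.73%, beside 8.38%. Where sham day 4 was at least 2-fold above day 7, the shares of 1881 loci were 2.66% and 17.3%. The median log2 ratio of border zone over sham tags on day 14, centred over all loci, was 0.41 in the first of these sets, -0.04 in the 15026 loci within 2-fold and -0.27 in the last.

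The same held with the days exchanged. Where sham day 4 was at least 2-fold below sham day 14, on day 7 a border zone-higher region lay in 24.7% of 2364 loci and a sham-higher one in 9.69%, beside 8.69% and 33% of all loci. Where it was at least 2-fold above, the shares of 1538 loci were 5.59% and 47.2%. Median log2 ratios of border zone over sham on day 7 were 0.58 and -0.30. Over identical intervals the reporter-higher medians were 0.43 on day 14 (939 loci) and 0.62 on day 7 (814 loci), and the PCM1-higher medians were -0.37 (120 loci) and -0.12 (89 loci). The 89 loci did not show the pattern in their shares on day 7, with 11.2% border zone-higher and 31.5% sham-higher beside 6.61% and 30.4% of all such loci.

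Part of this can follow from listing. A locus with few sham tags on day 4 was listed only if its border zone tags reached the minimum, and 24.1% of the 1740 reporter-higher loci held a border zone-higher region on day 4 itself, beside 6.96% of all loci. The shares were therefore read again, after seeing the data, in 16005 loci with a region at or above the minimum on sham tags on every day and no differential region on day 4. Of 1711 such loci with sham day 4 at least 2-fold below day 7, 16.1% were border zone-higher on day 14, beside 4.27% of all of them. Of 1370 with sham day 4 at least 2-fold below day 14, 15.3% were border zone-higher on day 7, beside 4.88%. Their medians were 0.31 and 0.43, beside -0.06 and -0.10. Where sham day 4 was at least 2-fold above, the medians were -0.30 (1577 loci, day 14) and -0.37 (1226 loci, day 7). In these loci, too, relatively few sham tags on day 4 went with a higher centred border zone over sham ratio on the later days. That ratio is relative to the median locus and need not mean more border zone than sham tags.

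Single loci are given by their mm9 coordinates, counted from 1. Among loci whose covered length differed by at most 500 bp, the strongest reporter-higher locus was chr10:84488251-84489250, with 1 identical interval of 1000 bp on every day. It had 81, 1816 and 4604 sham tags for days 4, 7 and 14. The reporter-sorted libraries stood far above the PCM1-enriched one, with 32.9 times the day 4 level on day 7 (26.4 to 41.7) and 23.5 times on day 14 (18.8 to 29.6), relative to the median locus. These intervals are exact 95% intervals of the tag counts and cover counting error only. Its border zone tags were 81, 691 and 1700, and the edgeR log2 fold change was -4.37 (SE 0.43, adjusted p = 0.00316).

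The next was chr1:134687251-134688250, again with 1 identical interval, with 54, 663 and 2724 sham tags on days 4, 7 and 14. Day 7 had 18.0 times the day 4 level (13.7 to 24.3) and day 14 had 20.8 times (15.9 to 27.8), and its border zone tags were 59, 245 and 974. In both of these loci whole sham tags exceeded whole border zone tags more than 2-fold on the later days and not on day 4. These tags are not scaled between libraries. Over all loci median sham tags were also the higher, at 97 against 56 on day 7 and 369 against 246 on day 14. On day 4 the medians were 159 and 144. The other 6 named loci on this side had 12 to 28 sham tags on day 4, all under the listing minimum, and covered 1000 bp on day 4 against 1500 bp later. They were chr2:44811251-44812750 (12, 133 and 484 tags), chr11:55241251-55242750 (19, 157 and 598 tags), chr10:126342251-126344250 (28, 227 and 827 tags), chr2:4366251-4367750 (18, 133 and 587 tags), chr5:53900251-53901750 (18, 119 and 429 tags) and chr4:140697251-140699250 (17, 114 and 384 tags). edgeR called all 8 named reporter-higher loci. It includes the sham libraries that chose them, so its values at named loci, here and below, are no independent support.

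A pair of further reporter-higher loci had 1 identical interval and at least 35 sham tags on day 4, and both were named after their values were seen. At chr6:79767751-79768750 the libraries of days 4, 7 and 14 had 65, 351 and 1849 sham tags, 7.93-fold and 11.7-fold above day 4. At chr17:71312751-71313750 they had 97, 425 and 1693, which was 6.44-fold and 7.21-fold. Their border zone tags were 55, 159 and 557 in the first and 77, 475 and 1869 in the other, low on day 4 in each.

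PCM1-higher loci showed smaller folds. At chr8:11097751-11099250 the sham libraries of days 4, 7 and 14 had 238, 42 and 112 tags, 3.86-fold above day 7 and 5.15-fold above day 14 relative to the median locus, with lower bounds of 2.77 and 4.10. Its border zone tags were 204, 39 and 117. Its edgeR log2 fold change was 1.81 (SE 0.28, adjusted p = 0.00572). The region was 1500 bp long on day 4 and 1000 bp later, which left log2 ratios of 1.51 and 1.92 per kb. At chr5:28381251-28382750 the tags were 299, 53 and 184, and at chr17:4974251-4975750 they were 296, 54 and 195. These were 3.84-fold and 3.94-fold higher on day 4 in the first, and 3.73-fold and 3.68-fold in the other. The remaining ones with a longer region on day 4 were chr9:28096751-28098250 (289, 55 and 183 tags), chr9:40267751-40269250 (253, 51 and 180 tags), chr14:111729251-111730750 (274, 53 and 199 tags) and chr3:41001751-41003250 (394, 79 and 289 tags). In all 7 loci, day 4 also had the most border zone tags. edgeR, which includes the sham libraries that chose them, called each of them.

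The locus chr14:69932751-69934250 went against the other 7. It had 62, 12 and 32 sham tags, 3.52-fold above day 7 (1.88 to 7.17) and 4.69-fold above day 14 (3.02 to 7.43), with equal covered lengths. Its border zone tags were 52, 43 and 154, and the edgeR log2 fold change over the 6 libraries was 0.61 (SE 0.57, adjusted p = 0.421). Its sham libraries of days 7 and 14 were the low ones, and those of the border zone were not.

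**Figure D5:**
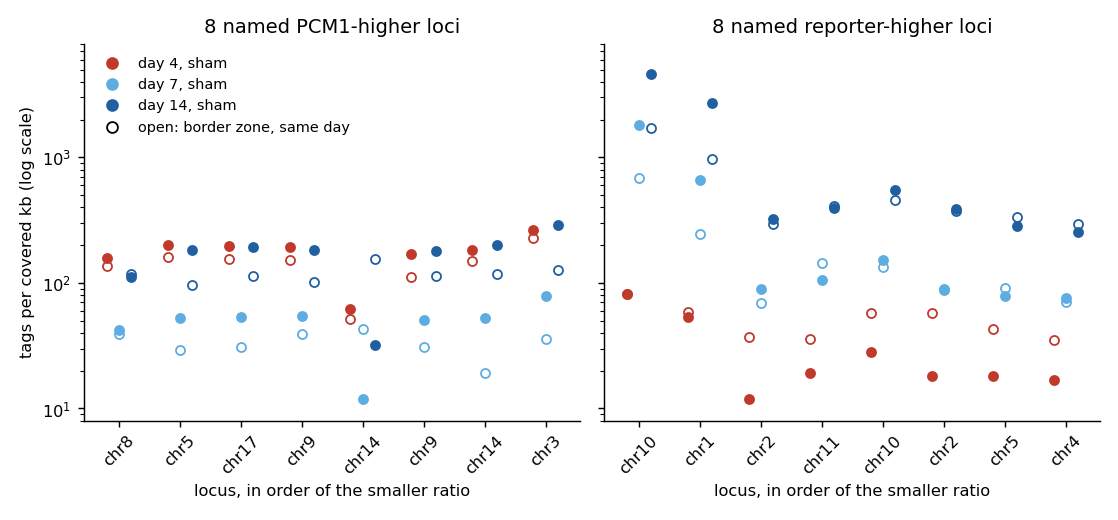
Tags per covered kb on a log axis for the 8 named loci of each direction, from sham (filled) and border zone (open) libraries of days 4, 7 and 14, not scaled between libraries. On the right, the day 4 points lie below those of day 7 in every locus, by most in the chr10 and chr1 loci, while on the left sham day 4 lies above sham day 7 in every locus.

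Loci with 1 identical interval that were PCM1-higher were looked for after seeing the data. At chr7:85663251-85664250 sham tags were 230, 50 and 157 on days 4, 7 and 14, 3.13-fold and 3.55-fold higher on day 4. At chr3:21305751-21306750 they were 388, 90 and 336, which was 2.94-fold (2.33 to 3.73) and 2.80-fold (2.41 to 3.25). Both were called by edgeR, with adjusted p = 0.00889 and 0.00503. At chr19:11892251-11893250 the tags were 184, 47 and 89, but the border zone ratio to day 7 was -0.18 and edgeR gave an adjusted p = 0.0785. At chr13:56718251-56719250 they were 189, 51 and 169, with an edgeR adjusted p = 0.0121. Accessibility higher in the PCM1-enriched library was thus also seen where the interval did not change, in few loci.

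The 2 PCM1-higher loci with the largest ratios fell outside the length rule and were named after their values were seen. At chr4:3007251-3011750 sham tags were 684, 25 and 65, over 4500 bp on day 4 and 1000 bp later, or 152, 25 and 65 per kb. At chr14:55619751-55629250 they were 3378, 179 and 1067 over 9500, 2000 and 4000 bp, or 355.6, 89.5 and 266.8 per kb. Per kb their log2 ratios were 2.19 and 2.64 in the first and 1.58 and 1.83 in the other. Border zone tags were 553, 57 and 160 in the first and 2405, 66 and 945 in the other.

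Of 9021 windows of 100 kb with a locus listed on all 3 days, 213 held at least 2 reporter-higher loci and no PCM1-higher one, and 41 held at least 2 PCM1-higher loci and no reporter-higher one. Reporter-higher loci are also the more numerous, clustering was not tested, and none is read from these counts. Windows with 4 or more numbered 16 on the reporter-higher side and 0 on the other. The top window, chr13:12100001-12200000, had 7 reporter-higher of 15 loci, with 1877, 3004 and 9355 sham tags over 33500, 41000 and 37500 bp, or 56.0, 73.3 and 249.5 per kb. Its neighbour chr13:12000001-12100000 had 6 of 15, with 2350, 3038 and 10794 sham tags over 40500, 37500 and 39500 bp. Median border zone ratios were -0.40 and -0.39 in the first of them and 0.20 and -0.31 in the other, so the neighbour had no lower border zone tags against day 7.

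The windows chr15:85400001-85500000 (6 of 9 loci), chr1:73900001-74000000 (6 of 11) and chr18:60800001-60900000 (5 of 11, 1 of 3 windows tied for the place) followed. Their median border zone ratios were -1.89, -0.93 and -0.84 against day 7 and -1.35, -0.81 and -0.88 against day 14. Only a short distance from the chr13 windows, chr13:11800001-11900000 was among the leading PCM1-higher windows, with 3 of 5 loci. It had 2204, 360 and 780 sham tags, but covered 25000 bp on day 4 against 7000 and 6500 bp, so tags per kb were 88.2, 51.4 and 120. Its median border zone ratios were 2.88 and 2.58. The window chr12:110000001-110100000 also had 3, of 4 loci, with 113.4, 61.2 and 147 sham tags per kb. The remaining places in this direction were shared by 39 windows with the same difference, and these are not named.

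The autosomes differed little. Over the autosomes the median ratio of day 4 over day 7 ranged from -0.14 on chromosome 19 to 0.08 on chromosome 10, and that of day 4 over day 14 from -0.16 on chromosome 19 to 0.10 on chromosome 3. For day 7 over day 14 it ranged from -0.08 on chromosome 17 to 0.05 on chromosome 3. The 205 loci of chromosome X had medians of 0.09 and 0.32, with 0.16 for day 7 over day 14. They thus lay near the autosomes against day 7, and differed from them between the reporter-sorted libraries too. Of them 16 (7.8%) were PCM1-higher and 4 (1.95%) reporter-higher. Chromosome X held 1.43% of placed sham tags in the day 4 lists, against 1.02% and 0.951% later. On chromosome Y 1 locus was listed on all 3 days, with 78, 304 and 254 sham tags. The labels give no sex of the animals, and its part was not tested.

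Loci listed on day 4 only, 17832 in number, had mostly few tags. Their sham tags ranged from 2 to 1233, with a median of 46 and a 95th percentile of 118, beside a median of 159 in loci listed on all 3 days. In 6552 of them (36.7%) sham lay under the day 4 minimum. At the median ratio between libraries, 16.8% would have reached the minimum of both later days on their sham tags alone, and 2.31% (412 loci) would have reached 2 times that minimum. A locus missing from a list has no measured value, so most of these loci cannot be read as closed on the later days. On day 4, 20.4% held a border zone-higher region and 10.9% a sham-higher one, beside 12.7% and 7.65% of all day 4 loci. On chromosome X 401 of 833 loci (48.1%) were listed on day 4 only, beside 29.1% on the autosomes.

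The 5 with the most sham tags were chr9:35112251-35113750 (1233 tags), chr19:53215751-53218250 (1092 tags), chr5:139856251-139859750 (923 tags), chr12:3109251-3110750 (904 tags) and chr19:53386751-53389750 (822 tags). Their border zone tags of day 4 were 1252, 942, 729, 927 and 649, above sham in 2 of the 5. The nearest region of the later days was 6000 bp away from the first, 12000 bp from the second, 500 bp from the third, 205000 bp from the fourth and 5500 bp from the fifth. Whether any of them holds repeated sequence was not tested.

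The 6304 loci listed on days 7 and 14 only were set beside the day 4 minimum in the same way. Sham tags had a median of 54 on day 7 (4 to 3983) and of 185 on day 14 (13 to 10680). They lay under the minimum of the day in 39.1% of these loci on day 7 and 31.7% on day 14. At the median ratio, 5759 of them (91.4%) would have reached the 35 tags of day 4, and 3035 (48.1%) 2 times as many. That ratio comes from loci listed on all 3 days and need not hold for loci without a day 4 region. The part of the minimum in their absence from day 4 was not tested. Border zone-higher regions were held by 36.9% of them on day 7 and 32.2% on day 14, beside 19.6% of all day 7 loci and 5404 of 38067 day 14 loci. Sham-higher regions were held by 5.65% and 1.08%, beside 24.3% and 7.16% of all loci of those days. The loci without a day 4 region were thus, like the reporter-higher ones, more often border zone-higher on the later days. Here the direction can also follow from the listing minimum, which applies to the larger of the sham and border zone values.

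The leading locus was chr17:56238251-56247250, 9000 bp long, with 3983 and 10680 sham tags in the later libraries and 1342 and 5529 border zone tags. It was followed on placed sequence by chr1:137748751-137755250 (2114 and 6815 sham tags) and chr7:51726251-51731250 (1914 and 6991 sham tags). The nearest day 4 regions lay 3000, 20500 and 8000 bp away. The other 2 of the 5 leading loci lay on unplaced contigs of chromosomes 9 and 8, with 3110 and 6648 and with 1858 and 2412 sham tags. Unplaced contigs held 133 regions in the day 7 lists, 108 in those of day 14 and 0 in those of day 4, and 47 of the 6304 loci lay on them.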

How the data were processed

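Sham and border zone ATAC libraries of days 4, 7 and 14 were analysed, 1 per condition and day, from 9 region lists. Sham tags are deposited counts, whole numbers per the file headers and values. Border zone tags are a deposited signal that the authors scaled, but those of the non-differential day 4 list are counts. Whole tags were recovered within a relative tolerance of 0.001% for 97.6% of 85106 scaled values, 2.35% were sums of such terms and 1 value was approximate. Alignment to mm9 used Bowtie2 for day 4 and BWA for days 7 and 14, with bedtools, per the submitters' processing notes. The sources used here give no versions, no region caller and no treatment of duplicates or of the transposase offset, nor whether a tag is a read or a fragment.

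Columns were assigned by name, with 0 columns of unmapped samples. Tags were summed over the regions of a locus and day, and log2 ratios were centred on their median over the 19733 loci listed on all 3 days. Those loci were fitted in edgeR 4.0.16 (TMM, quasi-likelihood; terms for condition and isolation, 3 residual degrees of freedom), with DESeq2 1.42.0 as an alternative, after tests on simulated data. The SE is the absolute log2 fold change divided by the square root of F. Named loci are the 8 per direction with the largest smaller ratio among those with at least 10 sham tags per day and covered lengths within 500 bp, the 5 day-restricted loci per list with most sham tags and the 5 windows of 100 kb per direction that differ most in the numbers of both classes. Marker lists could not be applied without an mm9 annotation. The members, lists and rules were chosen with earlier results of these data known.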

Additional observations from a re-analysis of the deposited data

Results flagged for a closer look

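In the locus chr14:69932751-69934250, sham tags were higher in the PCM1-enriched library of day 4. Border zone tags were lower there, but only relative to the median locus. The centred border zone log2 ratios were -0.97 for day 4 over day 7 and -0.73 for day 4 over day 14, against sham ratios of 1.81 and 2.23. The difference was tested as the interaction of isolation with condition in edgeR, with 2 residual degrees of freedom. The log2 interaction was -2.85, and edgeR gave a Benjamini-Hochberg adjusted p = 1 over all 19733 loci. It rests on as few as 12 sham tags on day 7.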

How the results depend on the processing

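Counts are given as PCM1-higher and then reporter-higher, beside 783 and 1740 in the report. They were 32 and 550 with the same covered interval, 154 and 915 per covered kb, 2507 and 3355 at 1.5-fold, 10 and 354 at 4-fold, 102 and 312 with at least 100 sham tags on every day, and 337 and 730 from non-differential regions alone. Without the day 7 or the day 14 sham library, where 1 ratio decides, they were 1538 to 1881 and 2364 to 2826. With the same interval centred on its own median, chosen after seeing the data, they were 68 and 407. The settings on fewer loci lower the counts in part by construction. With the same covered interval the shares fell too, from 3.97% to 0.337% and from 8.82% to 5.8%. At least 100 sham tags left 8404 loci, and the shares also fell there, with 102 and 312 of them. Non-differential regions alone left 9533, and with 337 and 730 of them the shares changed less. Total tags, leaving out chromosomes X and Y and unplaced contigs, and sham tags at or above the listing minimum on every day (chosen after seeing the data) stayed within 1.5 times. For edgeR, beside 2989 and 3582, the same interval gave 1276 and 1475, and leaving out each library gave 0 to 3002 and 0 to 3711, lowest without the border zone library of day 4. Total tags, a mean of at least 100 tags, no condition term, DESeq2 and an offset for covered length (chosen after seeing the data) stayed within 1.5 times, at 4420 and 5162 in DESeq2. With sham tags at or above the highest listing minimum, 380 of the day 4 only loci and 429 of the loci of days 7 and 14 only remained. The 16 loci named by rule kept their direction per covered kb and with total tags, and the other named loci were not run. No paired analysis was possible because the replicate numbers name 1 library per condition and day. Listing minimums and tag numbers, not the depth of whole libraries, limit these values.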
